A study of Homo sapiens with 8 samples.

Results

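The replacement histone variants are histone genes that lie outside the replication-dependent histone clusters and are also transcribed outside S phase. The 8 genes described here (*H1FX*, *H2AFJ*, *H2AFV*, *H2AFX*, *H2AFY*, *H2AFZ*, *H3F3A* and *H3F3B*, as spelled in the Gencode 31 annotation) were selected by name from 60754 listed genes and spike-in sequences, and 7 of them passed the filter on low values. They were measured by RNA-seq in CTCF-AID2 cells, made from SEM, an established human line of B-cell acute lymphoblastic leukemia. Both *CTCF* alleles of these cells carry a miniAID-mClover3 tag and a lentiviral cassette expresses OsTIR1(F74G) with Zeocin resistance, so that the auxin analog 5-Ph-IAA degrades the CTCF protein. The clones C17.2 and C3.2, each a single clone with this genotype, had 2 libraries of parental cells, which were untreated, and 2 of resistant cells. Resistant cells had grown for 36 days with 5-Ph-IAA at 1 μM and Zeocin at 100 μg/ml, and had then been kept for 48 h without drugs. The study describes a proline-to-serine change in the miniAID tag of resistant C3.2 cells and a premature stop codon in *CTCF* in resistant C17.2 cells. After the drugs were removed, it reports the tagged full-length CTCF protein beside the truncated form in resistant C17.2 cells. Nothing in the labels says that the libraries of a group came from separate cultures, so p-values measure the spread between these libraries, which may be technical. The numbers that open the library titles form a separate run in each clone, and what they stand for is not given, so anything they mark cannot be told apart from the clone.

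Nucleosomes wrap DNA around an octamer of the core histones H2A, H2B, H3 and H4, and linker histone H1 binds where the DNA enters and leaves. The bulk of these proteins comes from clustered, intronless genes that are expressed in S phase and whose mRNA ends in a stem-loop instead of a poly(A) tail. Replacement variants are supplied between S phases, mostly from genes with introns and polyadenylated mRNA, and are placed by dedicated chaperones and remodelers. H2A.Z and H3.3 mark promoters and enhancers, and H2A.X is phosphorylated beside DNA double-strand breaks. MacroH2A carries a large non-histone domain and is known for repressed chromatin.

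The deposited unit was TPM, a level per transcript length with a fixed total per library, so that depth is unknown and counting errors are not given. Because non-coding RNAs took a large and variable share of these rRNA-depleted libraries, TPM was divided by a trimmed-mean factor per library, between 0.893 and 1.16, and levels below are this scaled TPM unless deposited TPM is named. Pairs of libraries from 1 group correlated across genes at Pearson's r between 0.968 and 0.979. Of 10 B-lineage markers, 8 reached a deposited TPM of 1 in all groups. Of these 8, 5 were called lower in C17.2 (limma), and 4 were called lower and 1 higher in C3.2, with *IGLL1*, a surrogate light chain of the pre-B-cell receptor, at −2.16 and −2.35 on the log2 scale. In deposited TPM, the 5 T-cell markers summed to at most 0.25 and the 5 erythroid markers to at most 0.73. The 5 myeloid markers summed to 0.54 to 0.71 in parental, 1.21 to 3.5 in resistant C17.2 and 1.85 to 1.92 in resistant C3.2 libraries. Of these, *LYZ* alone was tested, and it was called in neither clone (0.64 and 0.85, limma, adjusted p = 0.0715 and 0.0552). The 5 markers of adherent epithelial cells or fibroblasts summed to 2.3 to 3.04 in parental, 6.5 to 7.52 in resistant C17.2 and 3.38 to 3.82 in resistant C3.2 libraries, and *COL1A1* was called higher in C17.2 (0.93, limma, adjusted p = 0.00339). The part of these markers in the values of the members was not tested. *CTCF*, the tagged gene, whose protein and not its RNA is the target of the drug, had a deposited TPM of 32.2 to 35.4 in the parental and 41.5 to 54.7 in the resistant libraries. On the scaled values its log2 fold change was 0.44 in C17.2 and 0.33 in C3.2 (limma, adjusted p = 0.000812 and 0.00688).

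The sequences upstream of the members differed in whether they held the motifs TATAAA and CCAAT. Those of *H2AFZ* and *H2AFV* (the pair of H2A.Z genes), *H1FX* and *H2AFX* are shown because their transcripts had the largest differences or the widest spread. Each is the 250 bases before the RefSeq transcription start on GRCh38.p14, read 5′ to 3′ on the minus strand, with capitals at matches to TATAAA or to CCAAT on either strand (TTTATA and ATTGG on the other). The windows lie at chr4:99950276-99950525 for *H2AFZ*, chr7:44848088-44848337 for *H2AFV*, chr3:129316287-129316536 for *H1FX* and chr11:119095466-119095715 for *H2AFX*.
H2AFZ: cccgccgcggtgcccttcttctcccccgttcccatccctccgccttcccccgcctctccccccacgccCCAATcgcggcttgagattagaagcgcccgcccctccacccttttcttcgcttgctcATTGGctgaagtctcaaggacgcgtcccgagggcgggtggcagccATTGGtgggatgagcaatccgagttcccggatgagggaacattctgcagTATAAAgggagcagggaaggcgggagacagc
H2AFV: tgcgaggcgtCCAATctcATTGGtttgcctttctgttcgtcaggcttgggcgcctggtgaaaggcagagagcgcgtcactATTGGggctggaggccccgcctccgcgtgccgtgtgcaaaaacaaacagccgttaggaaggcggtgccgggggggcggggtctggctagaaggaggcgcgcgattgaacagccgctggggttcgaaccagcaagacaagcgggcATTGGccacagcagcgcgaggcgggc
H1FX: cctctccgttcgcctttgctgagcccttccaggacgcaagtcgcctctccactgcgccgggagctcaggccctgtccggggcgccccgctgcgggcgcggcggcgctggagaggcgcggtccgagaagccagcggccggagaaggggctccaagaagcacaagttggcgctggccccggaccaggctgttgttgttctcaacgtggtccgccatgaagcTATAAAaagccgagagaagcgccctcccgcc
H2AFX: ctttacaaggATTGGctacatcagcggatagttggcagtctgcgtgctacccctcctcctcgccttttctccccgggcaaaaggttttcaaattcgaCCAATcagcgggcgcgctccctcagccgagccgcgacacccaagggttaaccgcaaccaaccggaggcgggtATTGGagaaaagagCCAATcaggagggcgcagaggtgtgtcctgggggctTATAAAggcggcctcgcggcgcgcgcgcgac
TATAAA began 31 bases before the start in *H2AFZ*, *H1FX* and *H2AFX*, and 29 bases before it in *H3F3B*. No match lay in the windows of *H2AFV*, *H2AFY*, *H3F3A* or *H2AFJ*. Among all 35116 RefSeq windows of this length, 10.7% held TATAAA and 32% held CCAAT at some place. The latter was found at 3 places for *H2AFZ*, 4 for *H2AFV*, 4 for *H2AFX* and 0 for *H1FX*, and at 2 or more places in 9.53% of all windows. It was also found at 4 places for *H3F3B* and 3 for *H2AFJ*, at 0 or 2 in the windows of *H2AFY* and at 0 or 1 in those of *H3F3A*. RefSeq windows were at hand for all 8 genes, and *H2AFY* and *H3F3A* have several. A match is a description of the letters only.

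The measured members were abundant, and the order of their levels was nearly the same in both clones. Averaged over the 8 libraries, *H3F3A* had a scaled TPM of 345 and ranked 165th among 11210 tested protein-coding genes. *H2AFZ* followed at 319, *H3F3B* at 234, *H2AFY* at 166, *H2AFX* at 89.5, *H2AFV* at 71.1 and *H1FX* at 62.6, which ranked 930th. In parental cells of C17.2, *H3F3A* at 281 ± 6.99 and *H2AFZ* at 285 ± 6.76 (SD, n = 2) differed by less than the spread between replicates. *H1FX* at 77.1 ± 8.33 and *H2AFX* at 78.1 ± 13.7 did likewise in those cells. In resistant cells *H2AFV* stood above *H1FX* (80.6 ± 1.53 and 34.5 ± 3.79 in C17.2, 74.7 ± 1.69 and 51.5 ± 15.7 in C3.2), whereas it stood below *H1FX* in parental cells of both clones. *H2AFJ*, an H2A variant, was at the floor of the tables and reached a deposited TPM of at most 0.05. It was not tested, and no fold change is given for it.

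**Figure D1:**
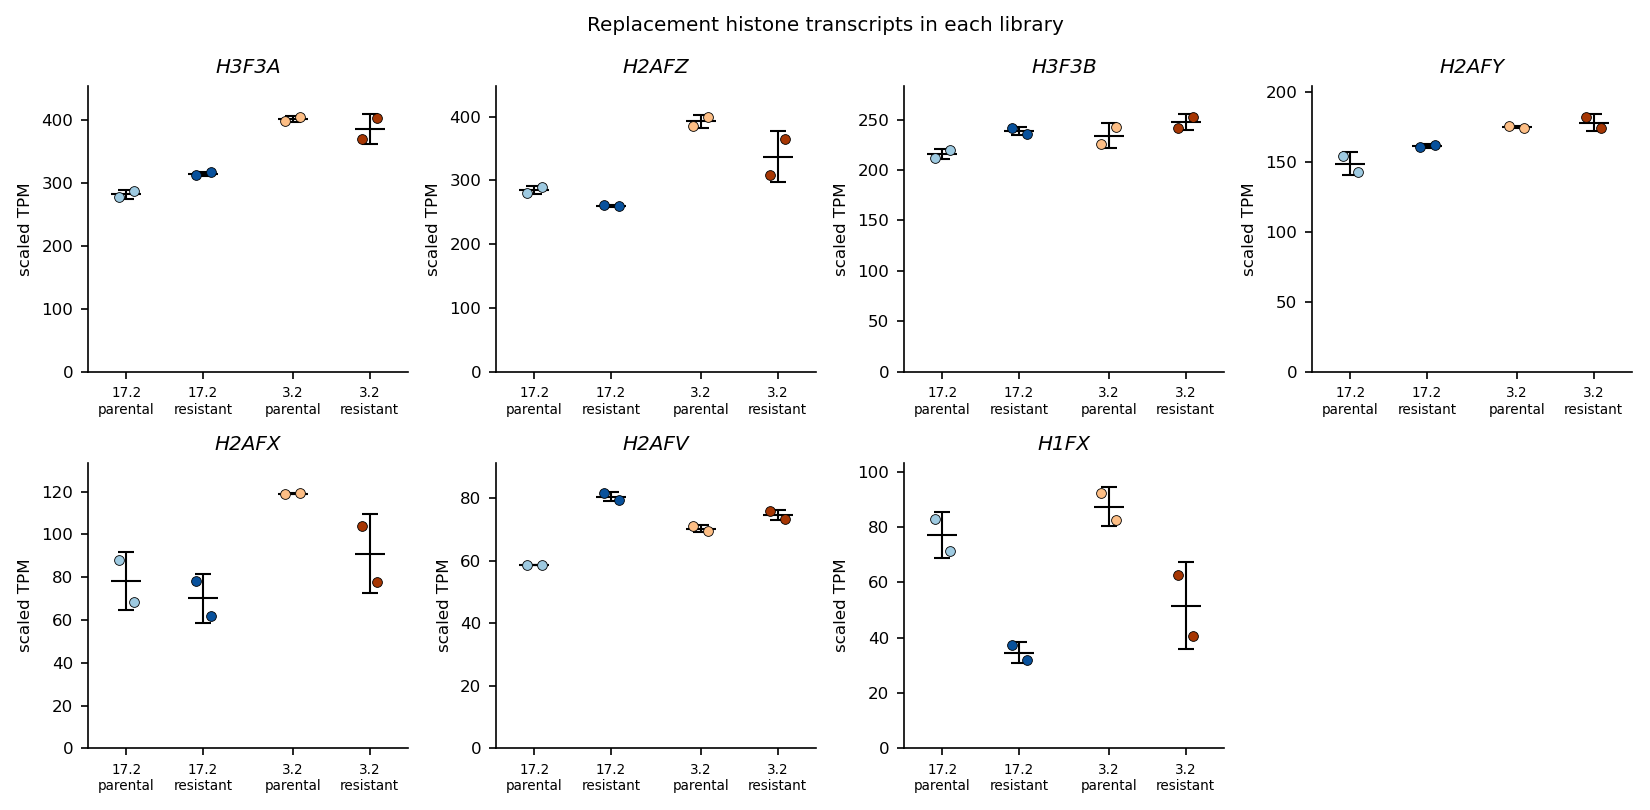
Scaled TPM (y axis, from 0) of the 7 measured members in each of the 4 groups (x axis). Points are the 2 libraries of a group, and the bar is their mean ± SD. *H2AFV* was 58.6 to 58.8 in parental and 79.5 to 81.7 in resistant C17.2 cells, and *H1FX* was lower in resistant than in parental libraries in both clones.

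In C17.2, resistant cells differed from parental cells in *H2AFV*, which rose, and *H1FX*, which fell. The other 5 measured members, of which *H3F3A* and *H3F3B* had an unadjusted p under 0.05, did not pass the test (limma, adjusted p under 0.05). So 1 of 7 was called higher and 1 of 7 lower, where 13.4% of all tested genes were called higher and 13.9% lower. In C3.2, none of the 7 was called by limma (background 4.43% higher and 6.91% lower), and 2 of them, *H1FX* and *H2AFZ*, had an unadjusted p under 0.05. In C17.2, 4 members (*H2AFV*, *H2AFY*, *H3F3A*, *H3F3B*) were higher in both resistant libraries than in both parental ones and 2 (*H1FX*, *H2AFZ*) were lower, against 33.1% and 32.8% of all genes. In C3.2, 1 member (*H2AFV*) was higher in this way and 3 (*H1FX*, *H2AFX*, *H2AFZ*) were lower, against 27.7% and 28.1% of all genes. The median log2 fold change of the 7 members was 0.12 in C17.2 and −0.059 in C3.2, beside 0 over all tested genes. The summed level of the 8 genes was 1145 ± 11.3 in parental and 1159 ± 18.1 in resistant C17.2 cells, and 1479 ± 18.6 and 1365 ± 29.9 in C3.2 (SD, n = 2). In bulk RNA, fewer cells that express a gene and less RNA per cell cannot be told apart.

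**Figure D2:**
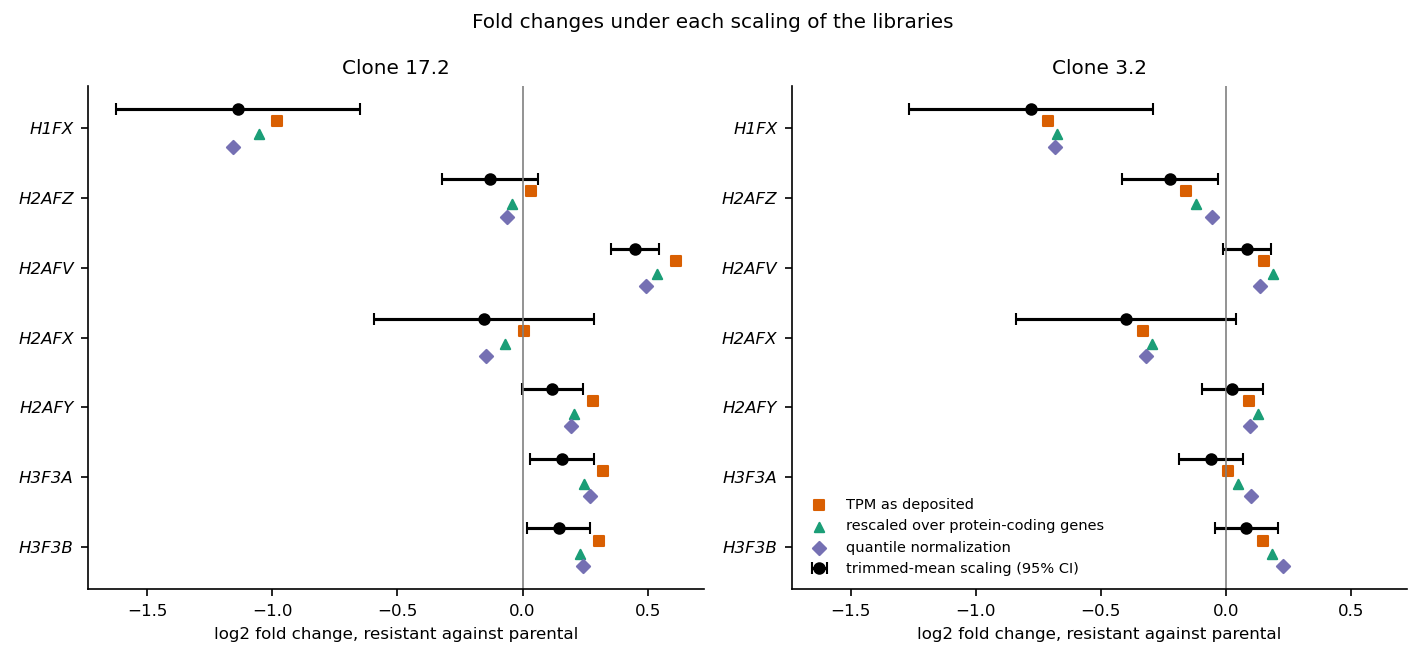
Log2 fold change of resistant against parental cells (x axis) for the 7 measured members (y axis) in C17.2 and C3.2. Black points are the reported scaling with 95% confidence intervals from limma, and colored symbols are the same fold change under other scalings of the libraries. The interval lay above 0 in C17.2 for *H2AFV* (0.35 to 0.55), *H3F3A* (0.031 to 0.29) and *H3F3B* (0.019 to 0.27). It lay below 0 for *H1FX* in both clones and for *H2AFZ* in C3.2 (−0.42 to −0.034). These intervals are not adjusted for the number of genes tested.

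*H1FX* encodes H1.10 (H1x), a linker histone that is made outside the replication-dependent clusters. It is a gene of 1 exon at chr3:129314771-129316286 on the minus strand (GRCh38). Its scaled TPM was 83.0 and 71.2 in the parental and 37.2 and 31.8 in the resistant libraries of C17.2. In C3.2 it was 92.2 and 82.3 in the parental and 62.6 and 40.5 in the resistant libraries. All 4 resistant libraries were below all 4 parental libraries, with a ratio of geometric means of 0.448 in C17.2 and 0.578 in C3.2. The log2 fold change in C17.2 was −1.14 (95% CI −1.62 to −0.65, limma, adjusted p = 0.00832). In C3.2 it was −0.78 (95% CI −1.27 to −0.29) and missed the threshold (limma, adjusted p = 0.0581). The difference between the clones was −0.36 (95% CI −1.05 to 0.33, limma, adjusted p = 0.478), so a difference between them was not shown. The C17.2 call was lost without parental replicate 1 (limma, adjusted p = 0.0662) and without resistant replicate 2 (0.0655), with log2 fold changes of −1.03 and −1.02. In C3.2 the call was gained without resistant replicate 1 (−1.09, limma, adjusted p = 0.0123), while the value shrank to −0.47 without resistant replicate 2 (limma, adjusted p = 0.127). *H1FX-AS1*, which lies over the gene on the other strand, was at 0.85 to 2.04 deposited TPM in the 8 libraries.

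The spread of *H1FX* and *H2AFX* between replicates was wider than that of the other members, except for *H2AFX* in parental C3.2 cells (0.0056 on the log2 scale), and both have GC-rich transcripts. GC content was 68.6% for *H1FX* and 66.8% for *H2AFX*, both of 1 exon, and 42.8% to 51.1% for the other 5. In resistant C3.2 cells, replicate 2 differed from replicate 1 by −0.62 on the log2 scale for *H1FX*, by −0.41 for *H2AFX* and by 0.24 for *H2AFZ*. In both groups of C17.2, *H1FX* and *H2AFX* were lower in the same library of the pair, by 0.22 to 0.36 in size. Levels of GC-rich genes as a class, which includes *H1FX* and *H2AFX*, also differed between the groups. Apart from the corrected fit given below, their part in the result was not tested. Over the 370 protein-coding genes with a GC content of at least 65%, the median log2 fold change was −0.19 in C17.2 and −0.078 in C3.2, beside 0.013 and −0.0036 over all 11210 protein-coding genes. Over the 23 such genes of a single exon it was −0.32 and −0.23. With a correction for GC content, chosen after these values were seen, *H1FX* was at −0.96 in C17.2 (limma, adjusted p = 0.00479) and at −0.72 in C3.2 (limma, adjusted p = 0.0293), so that both clones passed.

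**Figure D3:**
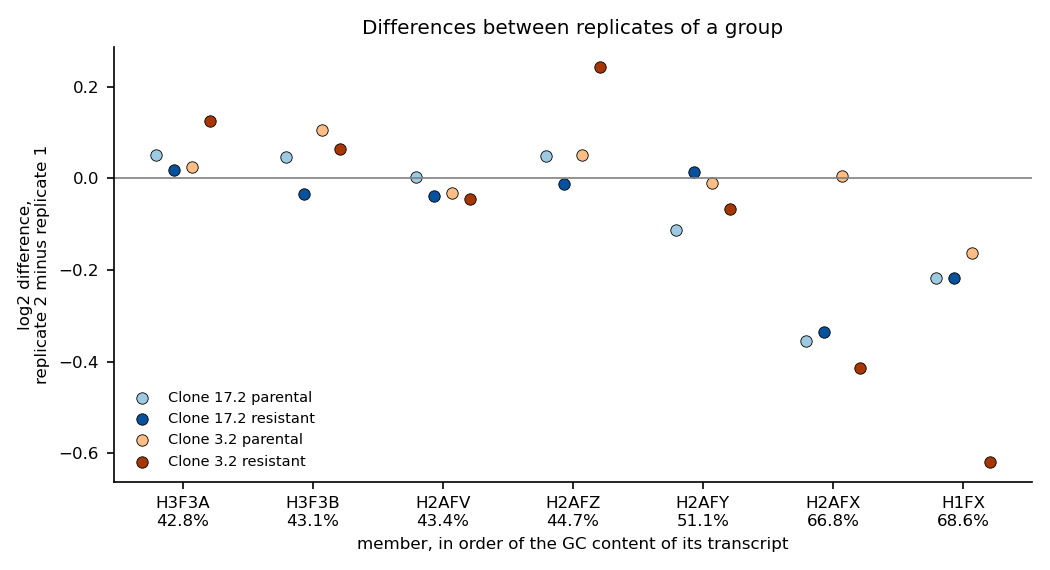
Log2 difference between the 2 libraries of a group (y axis, replicate 2 minus replicate 1, numbered in order of accession) for each member, in order of the GC content of its transcript (x axis). Colors are the 4 groups. *H2AFX* and *H1FX*, at 66.8% and 68.6% GC, had the lowest values, down to −0.62.

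Of the H2A.Z genes, *H2AFV* rose in C17.2, and *H2AFZ* was called in neither clone. *H2AFV* encodes H2A.Z.2 and lies at chr7:44826791-44848087 on the minus strand. Its scaled TPM was 58.6 and 58.8 in parental and 81.7 and 79.5 in resistant C17.2 libraries. The C3.2 libraries were at 71.1 and 69.5 in parental and 75.8 and 73.5 in resistant cells. The groups did not overlap in either clone, with ratios of geometric means of 1.37 and 1.06. The log2 fold change was 0.45 in C17.2 (95% CI 0.35 to 0.55, limma, adjusted p = 0.000625) and 0.085 in C3.2 (95% CI −0.011 to 0.18, limma, adjusted p = 0.226). The C3.2 value passed when TPM was rescaled to the protein-coding total (0.19, limma, adjusted p = 0.0267). That scaling put the C3.2 median of all genes at 0.085, and relative to this median *H2AFV* was at 0.10. The difference between the clones, 0.37 (95% CI 0.23 to 0.50), passed the test (limma, adjusted p = 0.0137), as 4.94% of all genes did in this direction and 9.96% in either. Without parental replicate 1 or 2 of C17.2 or parental replicate 1 of C3.2 this call was lost (limma, adjusted p = 0.0582, 0.0565 and 0.0627), at differences of 0.35 to 0.36.

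*H2AFZ* encodes H2A.Z.1, the more abundant form, at chr4:99948086-99950355 on the minus strand. Its scaled TPM was 280.1 and 290 in parental and 261 and 259 in resistant C17.2 libraries. The C3.2 libraries were at 386 and 399.8 in parental and 308 and 365 in resistant cells. The resistant libraries lay below the parental ones in both clones, and the log2 fold changes of −0.13 and −0.23 missed the threshold (limma, adjusted p = 0.280 and 0.127). Without resistant replicate 2 of C3.2 the latter was −0.35 and passed (limma, adjusted p = 0.0222), and without resistant replicate 1 it was −0.10 (limma, adjusted p = 0.196). On deposited TPM the C17.2 value turned to 0.032, with libraries at 294 and 286 in parental and 293 and 299.7 in resistant cells. That scaling put the median of all genes at 0.13, and relative to this median *H2AFZ* was at −0.10.

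The ratio of the H2A.Z genes within a library does not depend on a factor by which the whole library is scaled. Quantile normalization is not such a factor, and under it the log2 fold changes of *H2AFZ* and *H2AFV* were −0.061 and 0.49 in C17.2 and −0.057 and 0.14 in C3.2. *H2AFZ* exceeded *H2AFV* 4.85 ± 0.107-fold in parental and 3.23 ± 0.0426-fold in resistant C17.2 cells. In C3.2 the ratio was 5.59 ± 0.234 and 4.52 ± 0.641 (SD, n = 2). Every resistant library had a lower ratio than every parental library of its clone. *H2AFV* thus made up 17.1% ± 0.312 of H2A.Z transcripts in parental and 23.6% ± 0.238 in resistant C17.2 cells, and 15.2% ± 0.539 and 18.2% ± 2.12 in C3.2. The log2 ratio of resistant cells differed from that of parental cells by −0.59 and −0.31, or by −0.45 on average (0.732-fold). The exact permutation p within clones was 0.0556 (two-sided), the smallest that 36 arrangements allow, and within 1 clone p cannot go below 0.333. The summed level of the pair was 344 ± 6.89 in parental and 341 ± 3.00 in resistant C17.2 cells, and 463 ± 8.89 and 412 ± 38.5 in C3.2. The canonical transcripts of the pair aligned over 400 positions at 80.8% identity, with no run of identical bases longer than 23, and no window of 100 bases was shared.

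**Figure D4:**
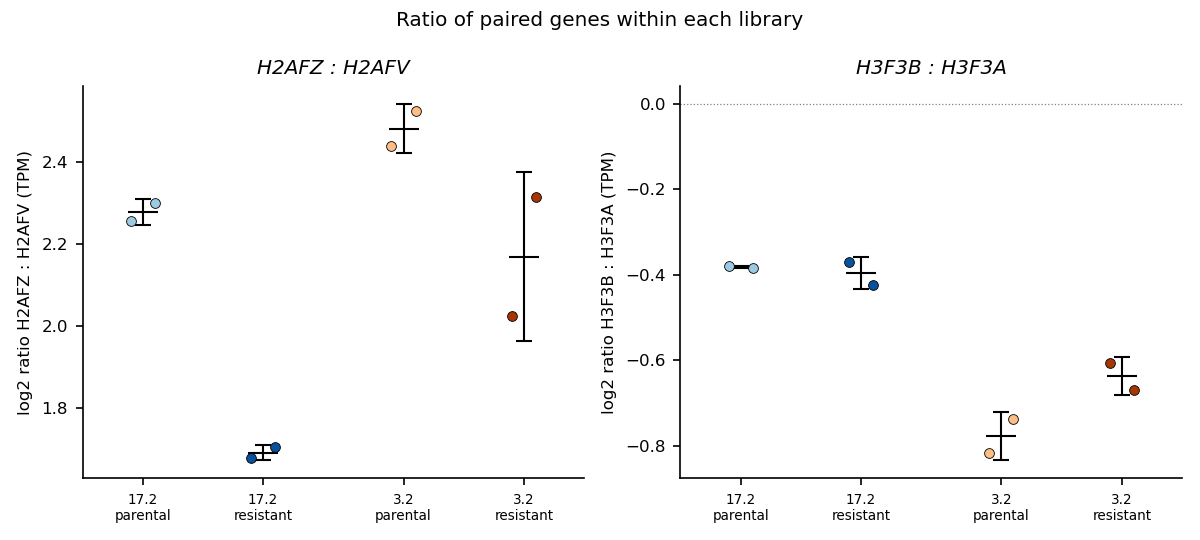
Log2 ratio of *H2AFZ* to *H2AFV* (left) and of *H3F3B* to *H3F3A* (right) within each library (y axes, which do not start at 0) by group (x axis). Points are libraries, and bars are the mean ± SD of 2. Pseudogenes are left out of both ratios. The *H2AFZ* to *H2AFV* ratio was lower in resistant than in parental libraries of both clones, by 0.59 and 0.31 on the log2 scale.

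*H2AFX* encodes H2A.X, the variant phosphorylated at DNA breaks. The gene is of 1 exon at chr11:119093874-119095465 on the minus strand. Its scaled TPM was 87.8 and 68.5 in parental and 78.3 and 61.9 in resistant C17.2 libraries, and these groups overlapped. In C3.2 it was 118.8 and 119.3 in parental and 104 and 77.8 in resistant libraries, without overlap. The log2 fold changes of −0.15 (95% CI −0.59 to 0.29) and −0.40 (95% CI −0.84 to 0.040) did not pass (limma, adjusted p = 0.579 and 0.217). The C3.2 value was −0.61 without resistant replicate 1 and −0.19 without resistant replicate 2 (limma, adjusted p = 0.10 and 0.613). The C17.2 value was 0.0058 on deposited TPM, and −0.13 relative to the median of all genes under that scaling.

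*H2AFY* encodes macroH2A1 and lies at chr5:135334381-135399914 on the minus strand. Its scaled TPM was 154 and 143 in parental and 160.4 and 162 in resistant C17.2 libraries. C3.2 libraries were at 176 and 174 in parental and 182 and 174 in resistant libraries, which overlapped. The log2 fold changes were 0.12 (95% CI −0.0032 to 0.24) and 0.025 (95% CI −0.097 to 0.15), and neither passed (limma, adjusted p = 0.136 and 0.799). The C17.2 value passed on deposited TPM (0.28, limma, adjusted p = 0.0437) and when TPM was rescaled to the protein-coding total (0.20, limma, adjusted p = 0.0234). These scalings put the median of all genes at 0.13 and 0.069, and relative to those medians *H2AFY* was at 0.15 and 0.14.

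*H3F3A* and *H3F3B* encode the same H3.3 protein from different genes. *H3F3A* lies at chr1:226061851-226072019 on the plus strand. Its scaled TPM was 276 and 286 in parental and 312 and 316 in resistant C17.2 libraries, and 397 and 405 against 368 and 402 in C3.2. *H3F3B* lies at chr17:75776434-75785893 on the minus strand. It was at 212 and 219.5 in parental and 241.5 and 236 in resistant C17.2 libraries, and at 225 and 243 against 242 and 253 in C3.2. Both genes were higher without overlap in resistant C17.2 cells and overlapped in C3.2. In C17.2 the log2 fold changes of 0.16 for *H3F3A* and 0.14 for *H3F3B* missed the threshold (limma, adjusted p = 0.0717 and 0.0884). Both passed on deposited TPM, on TPM rescaled to the protein-coding total and after quantile normalization, at 0.23 to 0.32 (limma, adjusted p from 0.00801 to 0.0232). The C17.2 call of *H3F3A* was also gained without either resistant replicate of C3.2 (limma, adjusted p = 0.0244 and 0.0246) and with C17.2 fitted alone (limma, adjusted p = 0.0447), at the same log2 fold change of 0.16. The difference between clones in *H3F3A*, 0.22 (limma, adjusted p = 0.127), was called without resistant replicate 2 of C3.2 (0.28, limma, adjusted p = 0.0468). These settings of scaling put the median of all genes at 0.13, 0.069 and 0.026, and relative to those medians the pair was at 0.16 to 0.24. In C3.2 the values were −0.059 for *H3F3A* and 0.081 for *H3F3B* (limma, adjusted p = 0.521 and 0.362), and the first turned positive under each of these other scalings. Relative to the C3.2 median of all genes, *H3F3A* was at −0.045 on deposited TPM and −0.039 on TPM rescaled to the protein-coding total. After quantile normalization it was at 0.068 relative to that median.

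*H3F3B* was at 0.768 ± 0.00121 of the level of *H3F3A* in parental and 0.760 ± 0.0201 in resistant C17.2 cells. In C3.2 the ratio was 0.583 ± 0.0229 and 0.643 ± 0.0196 (SD, n = 2). The log2 ratio of resistant cells differed from that of parental cells by −0.015 and 0.14, or 0.063 on average, and an exact permutation test within clones gave p = 0.222. The parental clones differed more from each other (−0.38 and −0.78 on the log2 scale) than either differed from its resistant cells. Pseudogenes are left out of these ratios, among them *H3F3AP4*, a copy identical in sequence to part of *H3F3A* and described below. With pseudogene TPM added, *H3F3B* in parental cells was at 212 and 219.5 against 468 and 480.0 for *H3F3A* in C17.2. In parental C3.2 cells it was at 225 and 243 against 604 and 644. The log2 ratio of resistant cells then differed from that of parental cells by 0.018 and 0.080 (exact permutation within clones, p = 0.389). *UNK*, a gene that overlaps *H3F3B* on the other strand, had a deposited TPM of 22.6 to 34.4. Whether strand was used in counting is not given in the sources used here, so reads of the overlap may not be told apart.

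*H3F3A* has a copy of identical sequence that was listed at a high level. Of 15 listed pseudogenes named after the members, 14 had a deposited TPM of at most 0.49 and 8 of these were at 0 in all libraries. The remaining one, *H3F3AP4*, a processed pseudogene of 411 bases at chr2:174719908-174720318 on the plus strand, had a deposited TPM of 184.5 to 250.6. All 411 bases of *H3F3AP4* matched the *H3F3A* transcript of 1070 bases without a mismatch, so that each of its 312 windows of 100 bases is also in *H3F3A*. Reads inside the copy cannot be told apart by sequence. *H3F3B* has 88 differences from *H3F3A* over the 408 coding bases (78.4% identity), and the longest run they share is 14 bases. Codons 61 to 90 of the 3 show this, with capitals where a base differs from *H3F3A*, from transcripts of Gencode 44 on GRCh38.
H3F3A: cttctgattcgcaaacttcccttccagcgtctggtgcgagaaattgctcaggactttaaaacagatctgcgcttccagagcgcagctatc
H3F3AP4: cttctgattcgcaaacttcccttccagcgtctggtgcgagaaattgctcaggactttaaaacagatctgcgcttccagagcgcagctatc
H3F3B: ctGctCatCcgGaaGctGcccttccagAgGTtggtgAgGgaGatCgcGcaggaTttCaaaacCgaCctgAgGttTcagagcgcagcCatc
The stretch of *H3F3AP4* had 0 differences and that of *H3F3B* had 22. The scaled TPM of *H3F3AP4* was 191 and 194 in parental and 200.2 and 206 in resistant C17.2 libraries. The C3.2 libraries were at 207 and 239 in parental and 210.5 and 270.4 in resistant cells. Its log2 fold changes of 0.077 and 0.10 did not pass (limma, adjusted p = 0.687 and 0.639). With the pseudogene added, *H3F3A* was at 468 and 480.0 in parental and 513 and 522 in resistant C17.2 libraries, and its log2 fold change was 0.13 (limma, adjusted p = 0.274). This is a sum of TPM, a level per transcript length, and the copy has 411 bases against 1070. It is therefore not the level that *H3F3A* would have with the reads of the copy returned to it. In C3.2 the sum was 604 and 644 in parental and 579 and 673 in resistant libraries, at 0.0012 (limma, adjusted p = 1). *AC010894.3*, a long non-coding RNA gene over the pseudogene, was listed at 0 in all 8 libraries.

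**Figure D5:**
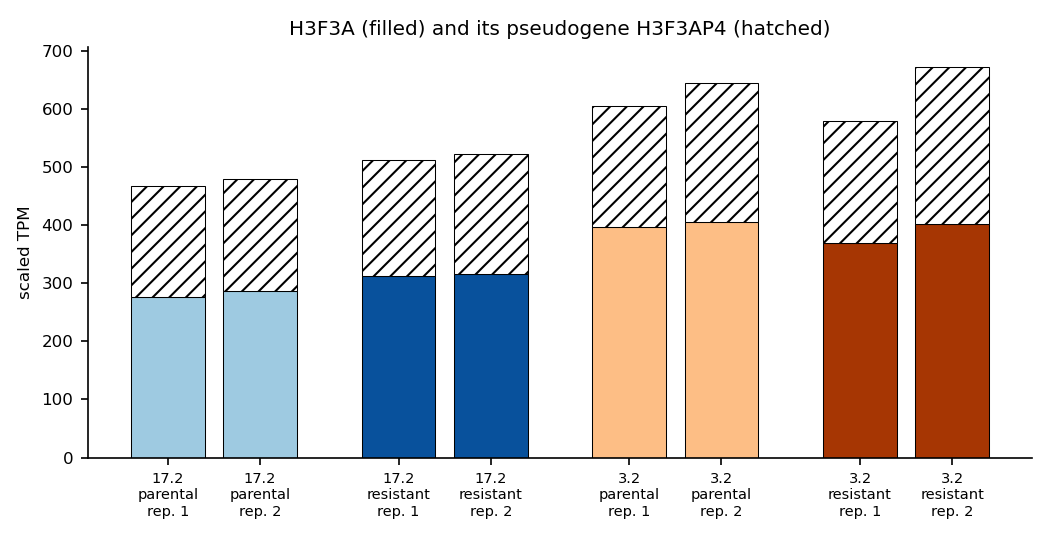
Scaled TPM (y axis, from 0) of *H3F3A* (filled) with its pseudogene *H3F3AP4* stacked on top (hatched), in each of the 8 libraries (x axis). The pseudogene took 191 to 270.4 scaled TPM, and the sum ran from 468 to 673. The sum is of TPM of transcripts of unlike length.

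The factors that place or remove these variants were expressed, and their counts are read against the shares of all genes called, 13.4% higher and 13.9% lower in C17.2 and 4.43% and 6.91% in C3.2. Among 20 subunits and factors for H2A.Z deposition and removal, 5 were called higher and 2 lower in C17.2 (limma), and 0 higher and 1 lower in C3.2. The largest rises in C17.2 were in *MEAF6* (0.35), *ACTL6A* (0.33) and *ZNHIT1* (0.23), and the falls were in *YEATS4* (−0.33) and *MBTD1* (−0.22). ZNHIT1 is a subunit of the SRCAP complex, which exchanges H2A for H2A.Z, and YEATS4 (GAS41) is a reader shared by SRCAP and TIP60 complexes. ACTL6A is an actin-related subunit of several remodelers, and MEAF6 belongs to acetyltransferase complexes. *BRD8*, a bromodomain subunit of TIP60, fell in C3.2 (−0.29). *ACTL6A* was the 1 gene of the 20 with a called difference between the clones (0.42, limma, adjusted p = 0.00853). The median over the 20 was 0.064 in C17.2 and −0.0016 in C3.2.

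Of 10 chaperones and assembly factors for H3.3, 1 fell in each clone. *CHD2*, a remodeler, was lower in C17.2 (−0.45), and *ASF1A*, a histone H3-H4 chaperone that hands H3.3 to the HIRA complex, was lower in C3.2 (−0.39). Of 6 factors for replication-coupled H3.1 assembly, *ASF1B* rose in C17.2 (0.23) and *RBBP4* fell in C3.2 (−0.24). Of 7 general chaperones, *SUPT16H*, a FACT subunit, rose (0.18) and *NPM1* fell (−0.20) in C17.2, and *NAP1L1* fell in C3.2 (−0.26). Of 12 genes of factors that act with H2A.X, such as kinases, ligases and readers, *RNF8* (0.35) and *RNF168* (0.17) rose in C17.2. Both encode ubiquitin ligases of the DNA break response. In C3.2, 0 of the 12 were called. Among 11 other variant histone genes, 1 was tested, *CENPA*, the centromeric H3, at 0.29 and −0.067 (limma, adjusted p = 0.0860 and 0.724).

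The replication-dependent histone genes are given beside the members with no test of the difference. Of 71 listed, 62 were tested, and 48 were called lower and 3 higher in C17.2 (limma), with a median log2 fold change of −0.69. *HIST1H3H* (−1.69), *HIST1H2BJ* (−1.66) and *HIST1H2AL* (−1.64) had the largest falls, and *HIST1H4L* (0.79), *HIST1H3E* (0.72) and *HIST1H4D* (0.54) rose. In C3.2, 10 were lower and 1 higher, with a median of −0.17. Their summed level was 33164 ± 379 in parental and 20612 ± 1103 in resistant C17.2 cells, and 29352 ± 1054 and 26806 ± 1580 in C3.2 (SD, n = 2). How much sequence these replication-dependent genes share with each other was not measured, so how well most of their single values can be told apart is unknown. *HIST2H3A* and *HIST2H3C* had equal means in parental C17.2, parental C3.2 and resistant C3.2 cells (108, 146 and 112). In those groups their values are not separate, though each is counted singly above.

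Cell cycle genes also moved in C17.2, where *H2AFV* rose. Of 15 genes of G2 and mitosis, 12 were called higher in C17.2 and 0 lower, with a median of 0.33, led by *KIF20A* (0.65), *CENPF* (0.52) and *CCNB1* (0.50). In C3.2, 0 were higher and 1 was lower, *CCNA2* (−0.19). Of 15 S phase genes, 4 were higher and 3 lower in C17.2, and 4 were lower in C3.2. Their part in the values of the members was not tested.

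The protein-coding genes whose levels were most like those of *H1FX* over the 8 libraries, each centered on the mean of its clone, were *RNF214* (r = 0.997), *LSM14A* (0.995) and *CDC14A* (0.989) among 11209 searched. These r are a description, since resistant and parental libraries stand apart in each clone. Of the members, *H2AFX* had r = 0.754 with *H1FX*, *H2AFZ* 0.516, *H2AFY* −0.544, *H3F3A* −0.638, *H2AFV* −0.825 and *H3F3B* −0.914.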

How the data were processed

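RNA-seq libraries were made from rRNA-depleted RNA of 8 CTCF-AID2 SEM samples, 2 per group. The authors used Trim Galore 0.6.3 for trimming, STAR 2.7.9a for alignment (GRCh38.p13) and RSEM 1.3.1 with Gencode 31 for quantification, and deposited TPM per gene and library. The methods describe paired-end and the labels single-end reads.

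From the deposited TPM, genes reaching 1 TPM in at least 1 library were kept (15614 of 60754). Library factors were trimmed means of log2 ratios (30% of ratios and 5% of means trimmed from each end), standing in for the TMM scaling of the study, whose voom fit needs counts. The test was limma 3.58.1 (R 4.3.3) on log2(scaled TPM + 1), by eBayes with a trend, in 1 model of 4 groups, two-sided, with Benjamini-Hochberg adjustment over all tested genes and a threshold of 0.05. The pseudocount of 1 understates fold changes of low genes. With n = 2, an exact test within 1 clone cannot reach p below 0.333. Ratios of paired genes were computed from deposited TPM and tested by exact permutation within clones. Samples were grouped by their clone label, and replicates were numbered in order of accession. Gene positions and transcripts came from Gencode 44 on GRCh38, matched by identifier (99.4% of tested genes), and promoters from RefSeq. A further gene of the selection is not reported here. The genes named were the 8 members described, up to 3 rises and 3 falls per gene list and contrast among those called, named pseudogenes past the filter, *CTCF*, and the 3 genes most like the member with the largest fold change. Overlapping genes, histone genes of equal values and other members' values are given where a result touches them. The members and lists were chosen with earlier results of these data known. Alternatives in scaling, pseudocount, filter, model, pseudogenes and libraries are in the closing section. The fit was tested on simulated data. Tables and plots were made in Python 3.11.15 with pandas 2.3.3 and matplotlib 3.10.9.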

Additional observations from a re-analysis of the deposited data

Results flagged for a closer look

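The effect in *H2AFV* was called different between the clones. Its log2 fold change was 0.45 in C17.2 and 0.085 in C3.2, a difference of 0.37 that passed the test of the difference itself (limma, adjusted p = 0.0137). The resistant libraries were above the parental libraries in both clones. Groups of 2 libraries are too small for a test of outlying libraries.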

How the results depend on the processing

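The fall of *H1FX* and the rise of *H2AFV* in C17.2 kept their direction under all alternatives run, at −1.25 to −0.96 and 0.43 to 0.61. Members called in C17.2 numbered 5 on deposited TPM, where 5128 of all 15614 genes were called. They numbered 5 on TPM rescaled over protein-coding genes, where 4856 genes were called, and 4 after quantile normalization, where 4238 were. With that clone alone 3 members and 3899 of 15253 genes were called. In each of these settings 1 of the called members was lower and the others were higher. Members called in C3.2 numbered 1 on TPM rescaled over protein-coding genes (*H2AFV*, 0.19), where 2430 of 15614 genes were called. With TPM of at least 1 in every library, 1 member (*H1FX*) and 1910 of 12301 genes were called. With the GC correction added after seeing the data, 1 member (*H1FX*) and 1904 of 15614 genes were called. Members with a called difference between clones numbered 0 to 2 without 1 library. All genes called ranged without 1 library from 2400 to 4580 in C17.2, 345 to 1818 in C3.2 and 560 to 1793 for the difference. The lowest counts were without parental replicate 1 of C17.2 (2400) and without parental replicate 1 of C3.2 (345 and 560). In C3.2, 1170 genes were called without a filter and 396 with that clone alone. Deposited TPM gave 3849 higher and 1279 lower genes in C17.2, against 2085 and 2174. Reversed values, none past the threshold, were as follows. In C17.2, *H2AFX* was at 0.0058 and *H2AFZ* at 0.032 on deposited TPM, and *H2AFX* ran from −0.33 to 0.022 without 1 library. In C3.2, *H3F3A* was at 0.0082 on deposited TPM, 0.046 rescaled over protein-coding genes, 0.10 after quantile normalization, 0.0012 with pseudogenes and −0.12 to 0.0032 without 1 library, and *H2AFY* was at −0.0096 to 0.060 without 1 library. The difference between clones in *H2AFZ* was −0.0041 after quantile normalization and −0.026 to 0.22 without 1 library. The cause of these changes was not tested. Averaged over the clones, both log2 ratios kept their direction under all alternatives run, while that of *H3F3B* to *H3F3A* in C17.2 alone turned from −0.015 to 0.018 with pseudogenes. No paired analysis was possible because the labels give the libraries no replicate numbers. TPM keeps no depth, so counting error could not be set beside any value. Where a group was left with 1 library, that library was assumed to vary like the other groups.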
